A study of Mus musculus with 2 samples.

Results

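The 10 miRNA precursors described here are those of miRNAs best known from the nervous system, measured in ischemic mouse hindlimb muscle. They were chosen by name from the 1187 precursors of each deposited list: the 3 copies of miR-9, the 3 copies of miR-124 and the 2 copies of miR-138, which are enriched in neurons, and miR-219a-1 and miR-338, which are known from myelinating glia. Both libraries hold small RNA of hindlimb muscle taken on day 1 after the femoral artery had been removed. The hypercholesterolemic library (HC) came from mice of genotype ApoE-/-, which the series' design text describes as fed a high fat diet. The normocholesterolemic control library (NC) came from C57Bl/6 mice. ApoE is the apolipoprotein through which lipoprotein remnants are cleared from plasma. Genotype and any difference in diet went together, so their parts cannot be told apart. The labels give neither age nor sex nor the number of mice behind a library. With 1 library per group there is no replicate spread and no test. Every interval below is a 95% interval of counting error within these libraries only.

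A miRNA is cut from a hairpin precursor, and its bases 2 to 8, the seed, pair with target mRNAs. miR-124 and miR-9 are abundant in brain, where they act on transcripts that neurons silence as they differentiate. miR-138 limits the size of dendritic spines, and miR-219 and miR-338 promote the maturation of oligodendrocytes, the myelinating cells of the central nervous system. Limb muscle contains motor and sensory axons with their Schwann cells, but no neuronal cell bodies and no oligodendrocytes.

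The hairpins are shown first because the copies of a miRNA share mature products. Sequences from RefSeq (GRCm38.p6, the assembly of mm10) were matched by name to 7 of the 10 precursors, and the precursors mmu-mir-124-1, mmu-mir-124-2 and mmu-mir-124-3 are named only. Capitals mark the annotated mature products in each hairpin.
mmu-mir-9-1: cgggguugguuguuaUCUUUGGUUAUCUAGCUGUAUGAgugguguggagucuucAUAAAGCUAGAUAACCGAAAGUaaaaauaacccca
mmu-mir-9-2: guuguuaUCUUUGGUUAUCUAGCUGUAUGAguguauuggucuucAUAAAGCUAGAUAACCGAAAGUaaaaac
mmu-mir-9-3: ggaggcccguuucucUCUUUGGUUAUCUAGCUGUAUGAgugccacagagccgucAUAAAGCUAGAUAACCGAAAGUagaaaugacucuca
mmu-mir-138-1: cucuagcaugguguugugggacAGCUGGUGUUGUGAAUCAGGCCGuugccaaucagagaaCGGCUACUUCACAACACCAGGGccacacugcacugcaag
mmu-mir-138-2: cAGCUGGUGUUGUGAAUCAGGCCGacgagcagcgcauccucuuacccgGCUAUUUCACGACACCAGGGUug
mmu-mir-219a-1: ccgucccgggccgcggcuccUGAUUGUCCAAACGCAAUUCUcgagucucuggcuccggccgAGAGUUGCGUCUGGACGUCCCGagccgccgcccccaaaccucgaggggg
mmu-mir-338: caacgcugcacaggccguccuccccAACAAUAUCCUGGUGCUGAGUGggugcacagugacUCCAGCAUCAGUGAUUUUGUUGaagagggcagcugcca
The 3 miR-9 hairpins carry the same mature sequence on both arms and differ outside them. The miR-138 hairpins share their 5p product and have different 3p products.

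The 7 hairpins yield 9 distinct mature sequences, shown next with the seed in capitals, because the seed sets which mRNAs each can pair with.
mmu-miR-9-5p: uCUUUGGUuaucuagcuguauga
mmu-miR-9-3p: aUAAAGCUagauaaccgaaagu
mmu-miR-138-5p: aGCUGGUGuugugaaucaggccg
mmu-miR-138-1-3p: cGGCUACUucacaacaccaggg
mmu-miR-138-2-3p: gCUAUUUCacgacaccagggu
mmu-miR-219a-5p: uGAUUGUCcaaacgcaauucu
mmu-miR-219a-1-3p: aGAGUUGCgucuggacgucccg
mmu-miR-338-5p: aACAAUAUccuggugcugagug
mmu-miR-338-3p: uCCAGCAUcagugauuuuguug
No seed was shared between any of these, and 0 other mature miRNAs in the same table carried one of them. The hairpins ranged in GC content from 33.3% for miR-9-2 to 69.1% for miR-219a-1, around a median of 51.7% over the 1005 hairpins of that table. Their lengths ran from 71 bases (miR-138-2) to 110 bases (miR-219a-1), with a table median of 79.

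The 5 miRNAs described here were a trace of the precursor counts in both libraries, and nearly all of it was counted at miR-338. The miR-338 counts may include reads of miR-3065, a precursor on the opposite strand with equal counts. With 1 copy counted per miRNA, the 5 miRNAs took 0.0233% of all precursor counts in HC (exact Clopper-Pearson interval 0.0228 to 0.0239%) and 0.0224% in NC (0.0219 to 0.0228%). The total keeps every precursor, copies included, such as miR-486a and miR-486b at 4626450 counts each in HC, so these shares may be too low. Of the counts of the 5 miRNAs, miR-338 supplied 91.9% in HC and 90.8% in NC. Between the libraries, miR-9 was furthest from equality by point value, 1.68-fold lower in HC (interval 1.39-fold to 2.03-fold). Its level was below the minimum set for a called difference, and the intervals of miR-124 and miR-219a include its value. miR-138 was 1.06-fold higher and miR-338 1.04-fold lower, neither with a firm direction. Differences of miR-124 and miR-219a were not detectable at this depth.

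The libraries held 31198050 (HC) and 43848576 (NC) counts over all precursors. Levels are given as CPM, counts relative to a library size scaled by the trimmed mean of M-values (TMM), multiplied by 1e6. CPM was not divided by hairpin length, since a small RNA read covers a mature product and not the hairpin. A count of 0 allows up to 0.0918 CPM in HC and 0.0717 CPM in NC, by the limit of 3 counts. The muscle markers fixed for the tissue check were abundant, with miR-133a-1 at 65127 CPM in HC and 65383 CPM in NC, and liver-specific miR-122 had 7 and 9 counts.

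**Figure D1:**
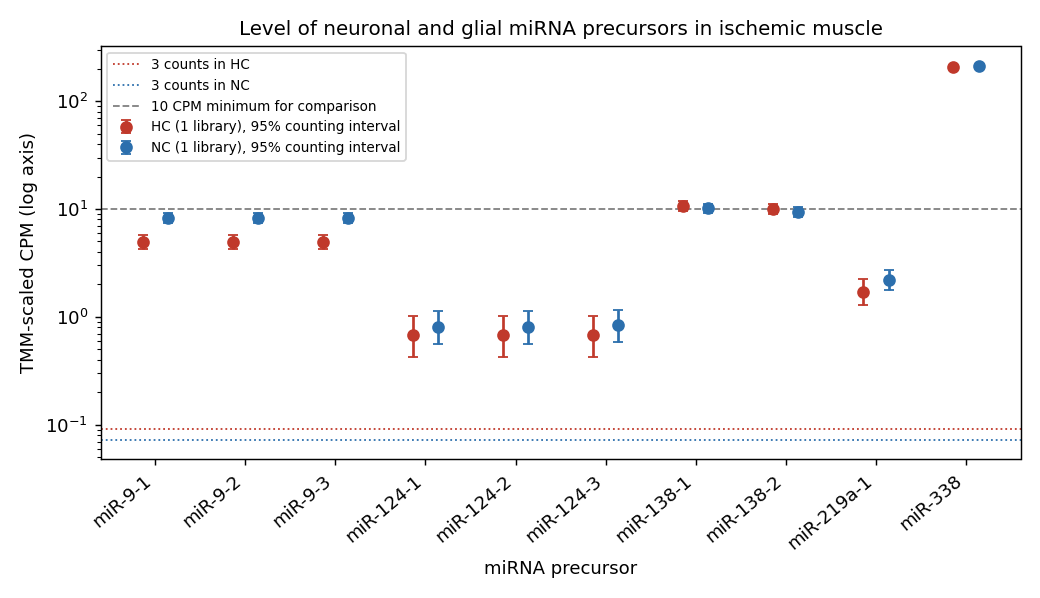
TMM-scaled CPM (log axis) of each of the 10 precursors in the HC library (red) and the NC library (blue), with 95% counting intervals; dotted lines mark 3 counts and the dashed line the minimum of 10 CPM. The copies of miR-9 and of miR-124 repeat nearly the same values, and those of miR-138 differ slightly. miR-338 stands at 204.8 and 212.7 CPM, and miR-9 stands lower in HC than in NC.

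miR-9 is encoded at 3 loci, all within long noncoding RNA genes in GENCODE M21. miR-9-1 (chr3:88215598-88215686, plus strand) lies in an intron of Gm3764. miR-9-2 (chr13:83738814-83738885, plus strand) lies in an exon of C130071C03Rik. miR-9-3 (chr7:79505264-79505353, plus strand) lies in an intron of Mir9-3hg. An annotated miRNA gene on the other strand, Gm25641, covers the whole miR-9-1 hairpin, and the sources used here do not say whether the counts used strand.

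Each miR-9 copy had 162 counts in HC. In NC miR-9-1 and miR-9-2 had 347 counts and miR-9-3 had 348. The copies have identical mature arms, and the longest identical stretch between hairpins was 33 bases for miR-9-1 and miR-9-2 and 26 bases for each pair with miR-9-3. The 3 values are therefore described as 1 miRNA: the files do not tell which locus supplied the reads, and a sum of the copies may count the same reads again.

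At 4.96 CPM in HC and 8.31 CPM in NC, miR-9-3 was lower in HC, with a log2 fold of HC over NC of -0.75 (interval -1.02 to -0.47). On the linear scale that is 1.68-fold lower in HC, with an interval from 1.39-fold to 2.03-fold. By count, the copies ranked 253rd in HC, and miR-9-3 ranked 230th in NC, of 1187 precursors. In bulk muscle, fewer cells or axons carrying a miRNA and less of it in each cannot be told apart.

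No member passed the limit set for a called difference, a mean of 10 CPM or more with a fold of at least 2 and an interval that excludes equality. That limit was passed by 2.25% of the 222 precursors compared at 10 CPM. miR-9 missed it on its level as well as on its fold. Only 2 of the 10 members reached the minimum at all: miR-138-1 stood just inside it at a mean of 10.4 CPM and miR-138-2 just outside at 9.71 CPM, and miR-338 stood far above. Another limit was chosen after the values were seen, a mean of 1 CPM or more and a fold of at least 1.5. The 3 miR-9 copies passed it and were lower in HC, as were 6.27% of the 335 precursors compared there, these copies included. Of those 335 precursors, 13 had a lower log2 fold than miR-9-3 and 321, with its own copies among them, a higher one.

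**Figure D2:**
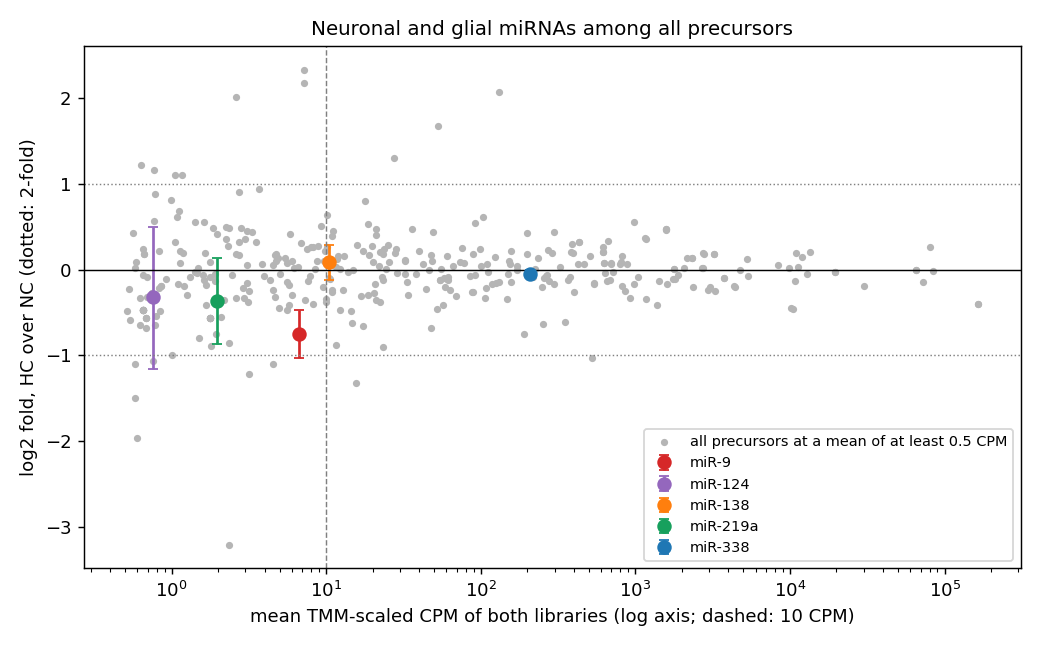
Log2 fold of HC over NC against the mean TMM-scaled CPM of both libraries (log axis) for the precursors drawn (grey, a mean of 0.5 CPM or more) and for the copy with the most counts of each of the 5 miRNAs (colour, with 95% counting intervals). miR-9 lies at -0.75, between equality and the 2-fold line, miR-138 and miR-338 lie near 0, and the intervals of miR-124 and miR-219a cross 0.

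The level of miR-9 can also be set against another miRNA of the same library. Such a ratio takes that miRNA as its scale, and the 3 used here had log2 folds near 0 with TMM, so the ratios are no separate support for the value of miR-9. HC held 41.3 counts of miR-338 for each count of miR-9-3, and NC held 25.6. The log2 difference of that ratio between the libraries was -0.69 for miR-9 over miR-338 (interval -0.97 to -0.41). Against miR-138-1 it was -0.83 (-1.18 to -0.48), and against the muscle miRNA miR-133a-1 it was -0.74 (-1.02 to -0.47). In all, 15 such ratios were formed among the 5 miRNAs and miR-133a, after the data had been seen. Besides these 3, the interval excluded 0 only for miR-338 over miR-133a-1, where the difference was -0.05 (-0.095 to -0.0035).

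Markers of other cell types also differed between the libraries, and their part in the value of miR-9 was not tested. The 3 epithelial markers were all lower in HC, with log2 folds of -0.66 for miR-205, -0.62 for miR-200b and -0.20 for the more abundant miR-203, and a summed level of 79.4 CPM in HC and 101.5 CPM in NC. The erythrocyte markers miR-144 and miR-451a were both higher in HC, summing to 608.8 and 467.9 CPM. The 3 leukocyte markers summed to 2266 and 2259 CPM, with miR-223 higher in HC at a log2 fold of 0.44, miR-142a at 0.011 and the lymphocyte miRNA miR-150 lower at -0.75. Endothelial miR-126a stood at 11407 and 11144 CPM. The 9 muscle marker precursors, some of them copies with shared reads, summed to 277821 and 323375 CPM, 4 of them higher and 5 lower in HC. The difference between these sums came from miR-486a, at 141556 and 187306 CPM, and was not shared by the muscle markers as a set. None of these marker precursors had a count of 0 in either library.

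miR-124, among the most abundant miRNAs of the adult brain, was low in muscle. mmu-mir-124-1 (chr14:64590657-64590741) lies in an exon of Mir124a-1hg, mmu-mir-124-2 (chr3:17795662-17795770) partly in an exon of Mir124-2hg, and mmu-mir-124-3 (chr2:180894040-180894107) partly in an exon of Gm27032, all long noncoding RNA genes on the plus strand. Each copy had 22 counts in HC. In NC miR-124-1 and miR-124-2 had 34 counts and miR-124-3 had 35, so the copies again could not be separated. miR-124-3 stood at 0.673 CPM in HC and 0.836 CPM in NC, a log2 fold of -0.31 with an interval from -1.15 to 0.50. A difference in miR-124 was not detectable at this depth, and the interval still allows a fold of HC over NC between 0.450 and 1.41. For each count of miR-124-3 there were 15.95 counts of miR-138-1 in HC and 12.1 in NC.

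Counted by the copy with the most counts, miR-138 was the most abundant of the neuronal members in both libraries. With the copies summed, which may count reads again, it stood at 20.8 CPM in HC and 19.5 CPM in NC, and miR-9 at 14.9 and 24.9 CPM, so the order turned in NC. miR-138-1 (chr9:122682876-122682974) lies in an exon of Gm47135, a transcribed pseudogene, and miR-138-2 (chr8:94324311-94324381) in an exon of C78859, a long noncoding RNA gene, both on the plus strand. miR-138-1 had 351 counts in HC and 424 in NC, and miR-138-2 had 328 and 393. The copies differed by 23 counts in HC and 31 in NC, 6.55% and 7.31% of the miR-138-1 counts, and share the 5p product but not the 3p product printed above. miR-138-1 stood at 10.7 CPM in HC and 10.1 CPM in NC, a log2 fold of 0.08 (-0.12 to 0.29), and miR-138-2 at 10.04 and 9.39 CPM, a log2 fold of 0.10 (-0.12 to 0.31). Both intervals included equality, and the wider one ran from 1.09-fold lower to 1.24-fold higher in HC. With plain library totals both intervals lay just above 0, at log2 folds of 0.22 and 0.23, and with the authors' scaling both folds were just below 0.

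Of the glial miRNAs, miR-219a-1 (chr17:34024983-34025092, minus strand) overlaps an exon of Gm26940, a long noncoding RNA gene. It had 56 counts in HC and 92 in NC, or 1.71 and 2.20 CPM. The log2 fold was -0.36 with an interval from -0.87 to 0.14, so no difference was detectable at this depth. Its other copy, miR-219a-2, is annotated with the same mature 5p product and had 11 counts in HC and 14 in NC. miR-219a-1 thus exceeded its copy 5.09-fold in HC and 6.57-fold in NC, unlike the copies of miR-9, miR-124 and miR-138. The counts do not tell which part of the hairpin the reads came from. How reads of the shared 5p product were listed is not known, so the miR-219a-1 counts may not be mainly miR-219a-5p.

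The miR-219a-1 hairpin is overlapped on the plus strand by miR-219c (chr17:34025012-34025071), a shorter precursor from the opposite strand. miR-219c had 4 counts in HC and 16 in NC, which is 7.14% (exact interval 1.98 to 17.3%) and 17.4% (10.3 to 26.7%) of the miR-219a-1 counts. The annotated miR-219a-5p runs from 34025052 to 34025072 and so ends 1 base beyond the miR-219c hairpin. The log2 fold of miR-219c was -1.64 (-3.68 to -0.01), a value that rests on 20 counts in all. miR-219b, which overlaps miR-219a-2 in the same way, had 8 and 14 counts.

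miR-338 (chr11:120014765-120014862, minus strand) lies in an intron of Aatk, a kinase gene transcribed from the same strand. With 6692 counts in HC and 8904 in NC it was the most abundant member by a wide margin, at 204.8 and 212.7 CPM, and ranked 109th and 108th of all precursors. The log2 fold was -0.06 (-0.10 to -0.01). That interval excluded 0, as did those of 83.3% of the 222 precursors compared, but the direction depended on the scaling: the log2 fold was 0.079 (0.033 to 0.12) with plain library totals and -0.17 (-0.21 to -0.12) with the authors' scaling. miR-338 is therefore given no direction. Over all 222 precursors the scaling also moved the split of intervals, from 88 above and 97 below 0 with TMM to 135 and 47 with plain totals and 55 and 131 with the authors' scaling.

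The counts of miR-338 were equal to those of miR-3065, at 6692 and 8904, a precursor on the plus strand that overlaps the same bases. The annotated miR-338-3p (chr11:120014781-120014802) and miR-3065-5p (chr11:120014780-120014801) cover the same stretch on opposite strands, shifted by 1 base.
mmu-miR-338-3p: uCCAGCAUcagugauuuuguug
mmu-miR-3065-5p: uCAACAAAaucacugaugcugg
Their seeds, in capitals, differ. The counts do not separate reads of the miR-338 strand from reads of the miR-3065 strand, so the value given for miR-338 may include reads of miR-3065.

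**Figure D3:**
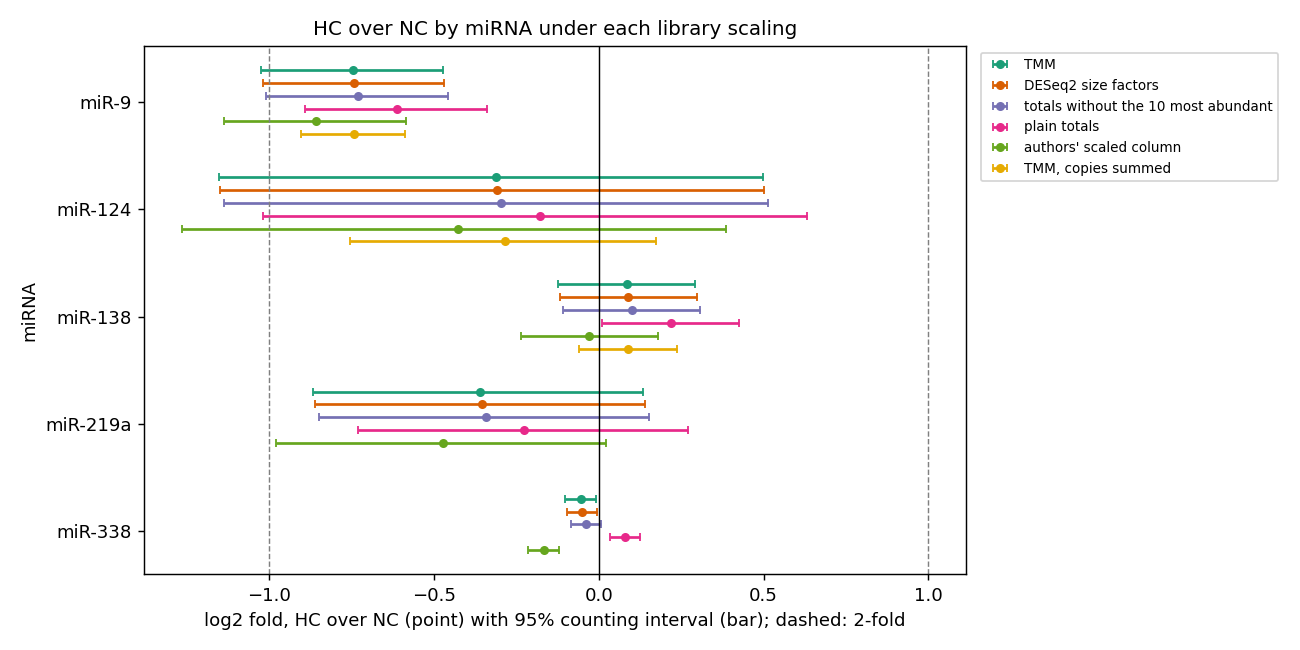
Log2 fold of HC over NC (points) with 95% counting intervals (bars) for the copy with the most counts of each miRNA under 5 library scalings, and for the summed copies where there are several; dashed lines mark a fold of 2. miR-9 stays left of 0 in all 6 settings, miR-338 lies on both sides of 0, and the intervals of miR-124 and miR-219a include 0 throughout.

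Beside most of these hairpins the files listed no abundant neighbour. Within 10000 bases of the members, miR-3093, 341 bases from miR-9-1, was at 0 counts in both libraries. miR-3078, 444 bases from miR-124-1, had 0 counts in HC and 3 in NC. The remaining neighbours were miR-219c and miR-3065, given above.

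Other neuron-enriched miRNAs lay on both sides of equality. Of 22 listed precursors, 4 reached 10 CPM: miR-128-1, miR-128-2, miR-132 and miR-7a-1. None passed the 2-fold limit. With TMM all 4 intervals lay above 0, against 39.6% of the 222 precursors compared, but miR-128-1 and miR-128-2 are copies of 1 miRNA. The authors' scaling shifts every log2 fold by -0.11, and the interval of miR-132, which began at 0.067, would then include 0. The median log2 fold of the 4 was 0.19 with TMM, beside -0.00074 over all 222. These miRNAs are also expressed outside the nervous system: miR-128-1 stood at 421.1 CPM in HC and 369.5 CPM in NC, miR-128-2 at 309.6 and 271.4 CPM, miR-132, an activity-induced miRNA, at 29.8 and 26.1 CPM, and miR-7a-1 at 12.7 and 9.32 CPM.

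At 1 CPM or more, 11 of the listed precursors were compared, with intervals above 0 for 6 and below 0 for 3. Over the 335 precursors compared at that level, 32.2% lay above and 36.7% below. The 3 below 0, named after their values were seen, were both copies of miR-218, which is abundant in motor neurons, and miR-488. miR-218-1 had 285 counts in HC and 464 in NC, a log2 fold of -0.35 (-0.56 to -0.13), and miR-218-2 had 282 and 470 counts, a log2 fold of -0.38 (-0.60 to -0.16). miR-488 had 36 and 80 counts, a log2 fold of -0.80 (-1.40 to -0.21). With TMM, these and miR-9 were lower in HC, while miR-212, which shares a cluster with miR-132, was above 0 at 0.31 (0.05 to 0.57). The authors' scaling would bring 0 into the intervals of miR-132, miR-212 and miR-7a-2, and plain totals into that of miR-218-1. Brain-enriched miR-137 was scarcely detected, with 1 count in HC and 3 in NC, and miR-7b and miR-346 were at 0 in both.

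**Figure D4:**
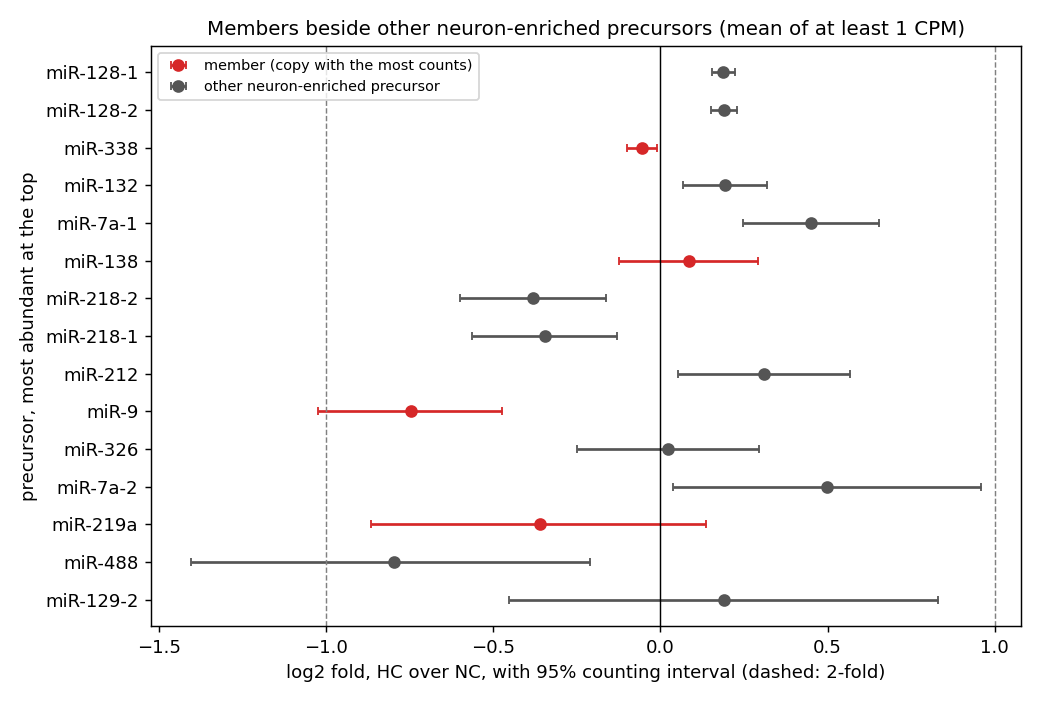
Log2 fold of HC over NC with 95% counting intervals for the members averaging 1 CPM or more (red, the copy with the most counts) and the 11 other neuron-enriched precursors at that level (grey), ordered by abundance; dashed lines mark a fold of 2. With TMM, miR-9, miR-218 and miR-488 lie below 0, miR-128, miR-132, miR-212 and miR-7a above it.

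The precursors closest to each miRNA in level, leaving out members and overlapping precursors, were found by the Euclidean distance in log2 CPM over the 2 libraries. miR-330, miR-1963 and miR-582 were nearest to miR-9, at distances of 0.35, 0.36 and 0.36. All 3 had a higher log2 fold than miR-9, between -0.47 and -0.29. Nearest to miR-138 were miR-362, miR-674 and miR-154 at 0.12 to 0.15, nearest to miR-219a miR-363, miR-5100 and miR-211 at 0.16 to 0.22, and nearest to miR-338, with the overlapping miR-3065 left out, miR-322, miR-195a and miR-29c at 0.09 to 0.20. With 2 libraries the measure holds a level and a fold and no further pattern.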

How the data were processed

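Small RNA of 1 HC and 1 NC library was compared. The authors deposited whole-number counts per miRNA precursor, followed by 5 summary rows that were left out of library sizes. A further deposited column, RPM in the file headers, was taken for a signal on a scale of the authors' own, since it is a constant multiple of the counts and sums to more than 1e6. It served only as an alternative scaling. The tools and build listed in the submitters' processing notes are HTSeq 0.5.4, TopHat2 2.0.10, CASAVA 1.8.2 and mm10. The sources used here do not say in which steps they served, whether strand was used, or how reads with several alignments were handled. Counts were scaled by TMM (edgeR 4.0.16, R 4.3.3), with no edgeR test. Folds have exact conditional binomial 95% intervals and shares exact Clopper-Pearson intervals (scipy 1.17.1). Without molecular identifiers, reads are not independent molecules, and the intervals and limits hold for counting error only. No fold was formed where both libraries had 3 counts or fewer. The procedure was also run on simulated counts with counting error only and known library sizes. That run cannot speak to the spread between libraries or to the choice of scaling. Ratios of 2 miRNAs within a library have exact conditional odds ratio intervals.

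All 10 members were named, with copies described by the copy with the most counts. Of the neuron-enriched list, members past the size limit or otherwise the 4 most abundant were named, others are marked, and the 3 nearest precursors were named for each miRNA at a mean of at least 1 CPM. A list of relatives of the glial miRNAs (miR-219a-2, miR-219b, miR-219c, miR-3065) was fixed too. Members and lists were chosen with earlier results of these data known. Alternatives were plain totals, DESeq2 1.42.0 size factors, the authors' scaling, totals without the 10 most abundant precursors, summed copies, minimum means of 1 and 50 CPM or none, and a fold of 1.5.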

Additional observations from a re-analysis of the deposited data

Results flagged for a closer look

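Counts outside all precursors took no part in the comparison and are listed because their share was higher than in the control library, at 55.9% of the listed counts in HC and 44.1% in NC.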

How the results depend on the processing

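No paired analysis was possible because each group holds 1 library. Of 40 member folds under another scaling, 38 stayed within the counting interval of the TMM value. The exceptions were miR-338 with plain totals, where the log2 fold turned from -0.055 to 0.079, and with the authors' scaling, where it was -0.17. These scalings shift every log2 fold by 0.13 and -0.11. For the members other than miR-338 the interval reaches further than such a shift, so staying within it is no sign of stability. The 40 folds also count the copies of a miRNA separately. The 38 include both miR-138 copies, whose intervals excluded 0 with plain totals but not with TMM. For miR-9 the log2 fold ran from -0.86 with the authors' scaling to -0.61 with plain totals, and was -0.74 with the copies summed. The number of members past the limit stayed at 0 with a minimum mean of 1 CPM, of 50 CPM or none, with plain totals, with DESeq2 size factors and with a fold of 1.5. It was 3, the miR-9 copies, at 1 CPM and a fold of 1.5 together, a setting chosen after seeing the data. The median of the neuron-enriched list was 0.33 with plain totals against 0.19 with TMM, and the authors' scaling shifts its folds by -0.11. Depth limits miR-124 and miR-219a: their intervals allow both directions.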
